A study of Mus musculus with 6 samples.

Results

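The regions described here are methylated-DNA peaks at the distal ends of mouse chromosomes. A peak was a member when its end lay within 2 Mb of the highest peak end on its chromosome, on chromosomes 1 to 5 and 10 to 19, which the list covered to their last peak. This gave 1382 of the 81117 peaks on these 15 chromosomes, and the other 79735 were the comparison. The list as read here held 84111 peaks and is cut on chromosome 6, so this is not a total for the genome. Positions alone chose the members, and no fold or width entered the choice.

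The study sequenced DNA pulled down by MBD2, a protein that binds methylated CpG sites (MBD-seq), from primary chondrocytes, the matrix-producing cells of cartilage. The cultures came from knee articular cartilage of mice at postnatal days 3 to 5. Of 6 cultures, 3 were from control mice labelled Dnmt1 flox and 3 from conditional knockout (cKO) mice labelled Prx1-Cre;Dnmt1 flox/flox. Prx1-Cre is active in limb mesenchyme, from which these chondrocytes derive, and Dnmt1 is the enzyme that copies CpG methylation onto newly made DNA. One peak list was analysed. It had been called on 3 merged datasets and held no value for a single culture, so control and cKO could not be compared and no replicate error exists. The list holds no expression values either, so the identity of the cells was not checked here. Each test below compared the end of a chromosome with the rest of the same chromosome over 15 chromosomes. Its p-value describes the spread between chromosomes and not between animals.

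Mouse chromosomes have the centromere at their low coordinates, so the high coordinates run towards the distal telomere. Telomeres are arrays of the repeat TTAGGG that protect chromosome ends, and the DNA beside them often holds repeats and members of recently duplicated gene families. In mammals CpG methylation is dense in repeats and in the bodies of transcribed genes, whereas CpG-rich promoters are mostly free of it. An end was taken here as the last peak of the list, since no chromosome lengths were used. In the RefSeq gene table of GRCm38.p6, 11 genes, 6 of them protein-coding, lay beyond the last peak over all 15 chromosomes, and 769 genes, 418 of them protein-coding, lay in the last 2 Mb.

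Sequence was read only for gene starts and microRNAs, from the RefSeq tables of the same build. Promoter windows, the 250 bases before the start of a protein-coding gene, were used on 14 of the 15 chromosomes. Of 408 such windows in the last 2 Mb, 11 overlapped a peak, or 2.70%. Over the whole of these 14 chromosomes the share was 2.59%, 382 of 14763. Of the 11 windows, 5 lay wholly inside a peak, and the 3 of these outside every gene body are shown as stretches before a gene start that the captured DNA spans from end to end. Tex19.1 is a germline gene silenced by methylation in somatic cells, Ptchd3 belongs to the Patched-domain family, and Ppp1r27 encodes a regulatory subunit of protein phosphatase 1. Each window is written 5′ to 3′ on the gene's strand, with CpG sites in capitals.
Tex19.1, chr11:121145893-121146142, plus strand: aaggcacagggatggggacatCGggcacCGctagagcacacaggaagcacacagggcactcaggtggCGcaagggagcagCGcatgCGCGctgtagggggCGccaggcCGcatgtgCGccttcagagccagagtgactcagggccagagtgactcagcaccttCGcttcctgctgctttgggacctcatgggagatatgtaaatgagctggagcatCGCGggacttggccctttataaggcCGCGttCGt
Ptchd3, chr11:121829968-121830217, plus strand: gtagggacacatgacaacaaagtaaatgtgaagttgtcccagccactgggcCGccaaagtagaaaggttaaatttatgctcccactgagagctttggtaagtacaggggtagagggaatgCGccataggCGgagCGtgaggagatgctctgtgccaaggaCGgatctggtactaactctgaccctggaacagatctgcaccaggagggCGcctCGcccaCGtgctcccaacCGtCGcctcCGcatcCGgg
Ppp1r27, chr11:120551133-120551382, minus strand: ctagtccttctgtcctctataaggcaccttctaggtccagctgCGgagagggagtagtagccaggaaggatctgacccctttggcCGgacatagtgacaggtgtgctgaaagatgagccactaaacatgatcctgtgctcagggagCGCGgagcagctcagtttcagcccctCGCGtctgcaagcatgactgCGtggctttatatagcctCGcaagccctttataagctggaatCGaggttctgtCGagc
The Tex19.1 window held 15 CpG sites, that of Ptchd3 12 and that of Ppp1r27 10, all near or above the median of 11 over all 408 windows. The peaks across them had folds of 50.2, 24.96 and 20.1. Over all 11 overlapped windows the median was 6 CpG sites, against 11 in the 397 windows without a peak. The rest of the chromosomes gave 7 and 11. The motif TTAGGG, on either strand, occurred in 36 of the 408 windows (8.82%) and in 9.24% of the 14355 windows elsewhere.

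Of 23 microRNA hairpins in the last 2 Mb, 7 had a peak within 1 kb (30.4%), against 31.1% of the 710 hairpins on the same 14 chromosomes. The peaks touched the hairpins of Mir429, Mir7005 and Mir7658. Mature sequences are shown for the first of these, its cluster neighbour Mir200a, and Mir338, with the seed (bases 2 to 8), through which a microRNA pairs with its targets, in capitals.
miR-429-3p: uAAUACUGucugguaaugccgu
miR-200a-3p: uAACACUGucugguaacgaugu
miR-338-3p: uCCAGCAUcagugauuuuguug
miR-429 and miR-200a belong to the miR-200 family, which maintains epithelial character, and their seeds are AAUACUG and AACACUG. One weak peak of 218 bp on chromosome 4 (156053714 to 156053931, fold 7.33, pileup 53 reads) overlapped the Mir429 hairpin and lay 965 bp from Mir200a and 1750 bp from Mir200b. The peak beside Mir338 on chromosome 11 (120015235 to 120015801) was stronger, with a fold of 37.7, and lay 373 bp from that hairpin and 382 bp from Mir3065 on the opposite strand. Mir7005 lies within Lama5 and was covered by a peak of fold 46.3.

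No difference in peak density between the chromosome ends and the rest passed the test, and the ends varied widely among themselves. Density in the last 2 Mb ranged from 22.0 peaks per Mb on chromosome 1 to 121 on chromosome 4, with a median of 34.0. Over the rest of the chromosomes it ranged only from 35.6 to 56.3, with a median of 41.1. The mean was 46.1 ± 28.7 peaks per Mb at the ends against 44.2 ± 6.84 elsewhere (SD, n = 15 chromosomes), a difference of 1.86. It was higher at the end on 6 chromosomes and lower on 9 (paired permutation test, two-sided, all 32768 exchanges, adjusted p = 0.954 over 7 measures). Without chromosome 4 or without chromosome 11 the sign of the difference turned, to as low as -3.28.

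**Figure D1:**
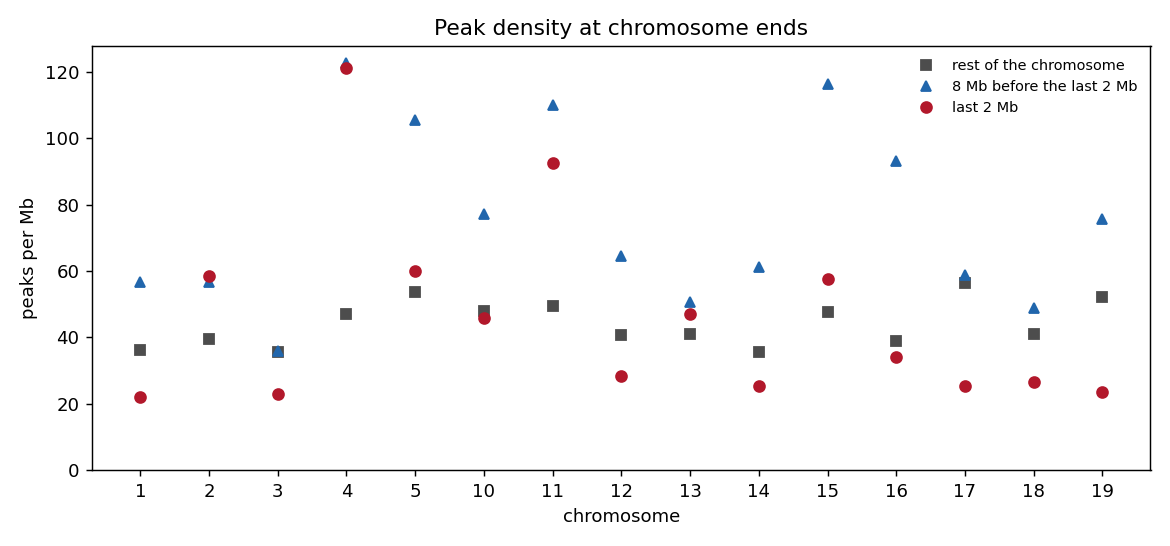
Peak density in peaks per Mb (vertical axis) for each of the 15 chromosomes (horizontal axis), in the last 2 Mb (circles), in the 8 Mb before them (triangles) and over the whole rest of the chromosome (squares). The circles run from 22.0 to 121 peaks per Mb and lie below the triangles on every chromosome except 2.

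The dense ends were those of chromosome 4 (242 peaks), chromosome 11 (185 peaks), chromosome 5 (120 peaks), chromosome 2 (117 peaks) and chromosome 15 (115 peaks). Chromosome 13 (94 peaks) was the remaining end above its own chromosome's rest. The sparsest were chromosome 1 (44 peaks), chromosome 3 (46 peaks) and chromosome 19 (47 peaks). Among all 2 Mb windows counted back from the last peak, the end of chromosome 4 ranked 5 of 76 and that of chromosome 11 ranked 6 of 59. The end of chromosome 1 ranked 83 of 96 and that of chromosome 17 ranked 39 of 45. An end was thus near the top of its chromosome in some cases and near the bottom in others.

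**Figure D2:**
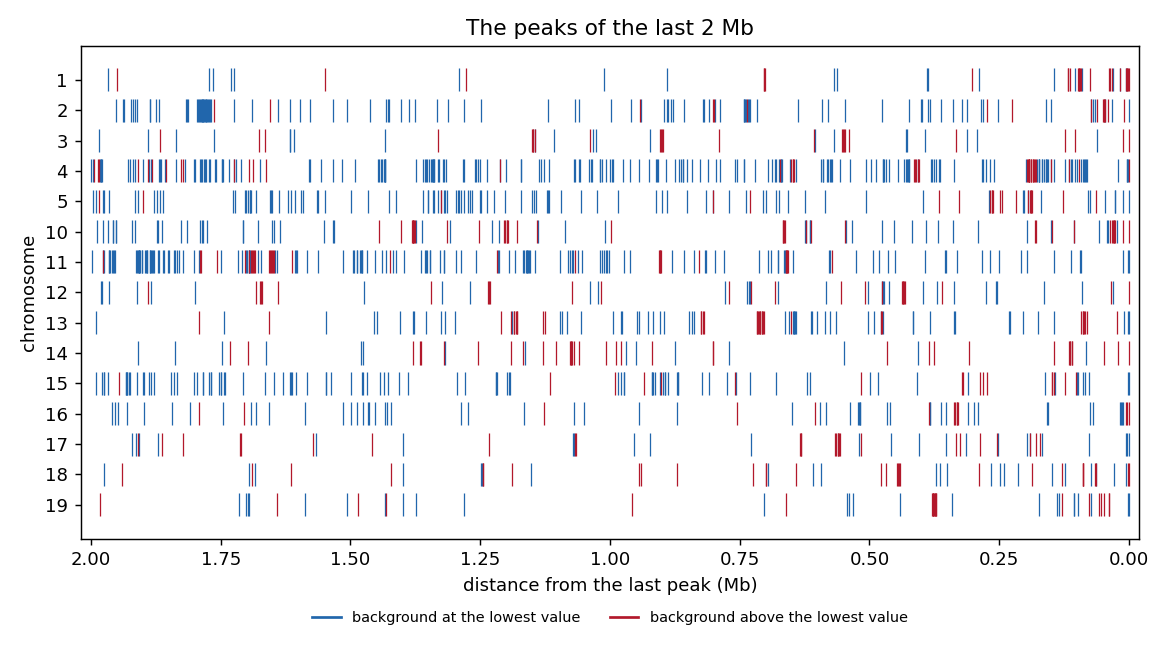
Position of each of the 1382 peaks (ticks) by distance from the last peak of its chromosome in Mb (horizontal axis), for each of the 15 chromosomes (vertical axis). Red ticks are the 404 peaks with a background above the lowest value and blue ticks the others. Over all chromosomes together red ticks gather towards 0, but on chromosome 11 none lies in the last 0.5 Mb.

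The picture was different against the neighbouring sequence, a second comparison planned beside the main one. In the 8 Mb before the last 2 Mb density was 75.6 ± 27.4 peaks per Mb, so the ends held 29.5 peaks per Mb fewer. The end was lower on 14 of 15 chromosomes, chromosome 2 being the exception with 58.5 against 56.8 peaks per Mb (paired permutation test, adjusted p = 0.00128). The difference stayed between -31.8 and -27.4 with any 1 chromosome left out. Chromosome 16 had 34.0 peaks per Mb at its end and 93.0 before it, and chromosome 19 had 23.5 and 75.6. On chromosome 4 both were high, at 121 and 123. This was the only called comparison of density among 10 alternatives, which also included a last 1 Mb (difference 3.16) and a last 5 Mb (difference 16.9).

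In steps of 2 Mb from the end, mean density was 46.1, 68.9, 71.9, 90.6 and 71.0 peaks per Mb. The mean number of protein-coding genes did not follow this course. The last step held 13.9 per Mb on average, and the next 4 steps held 7.93 to 10.2. The ends differed widely, from 2 genes in the last 2 Mb of chromosome 17 to 84 on chromosome 10. Protein-coding bodies covered 41.9% of the last step on average, and 49.1%, 38.8%, 49.9% and 39.4% of the next 4. The first 0.5 Mb had 54.7 peaks per Mb, but it always contains the peak that defines the end. The next bins of 0.5 Mb had 40, 41.2 and 48.4, and density was highest within 20 Mb at 7.5 to 8 Mb from the end, with 94.5 peaks per Mb. At the limit of the last 2 Mb, 167 peaks lay in the 200 kb just inside it and 161 in the 200 kb just outside.

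**Figure D3:**
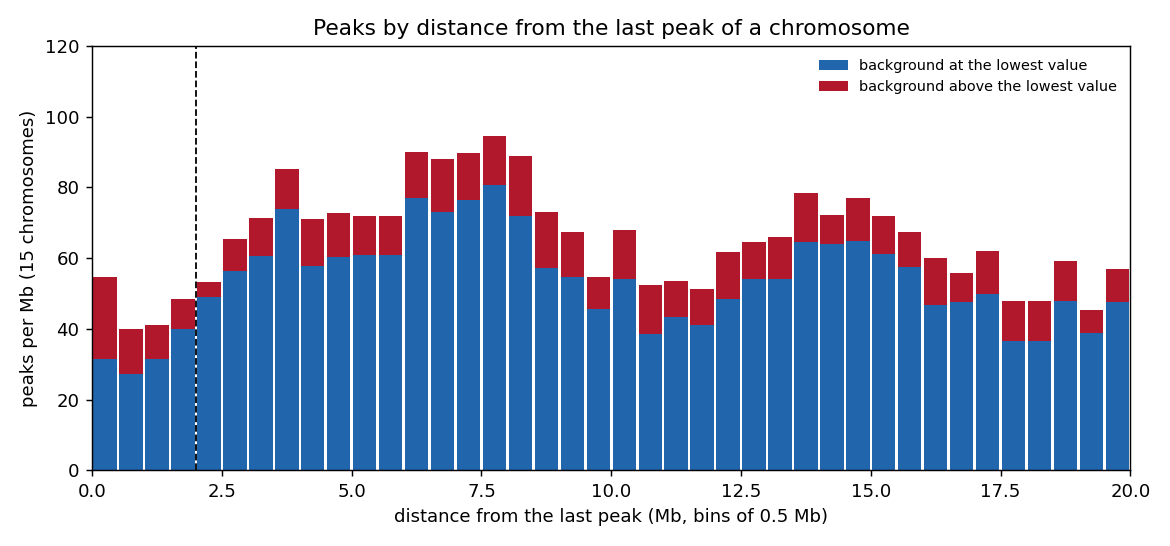
Mean density in peaks per Mb over 15 chromosomes (vertical axis, stacked bars) in bins of 0.5 Mb by distance from the last peak (horizontal axis, up to 20 Mb), split into peaks at the lowest background (blue) and above it (red). The dashed line marks 2 Mb, and the red part is largest in the first bin, at 23.1 of 54.7 peaks per Mb.

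Ends with many genes had many peaks, with chromosome 10 as the exception. Across the 15 ends density and protein-coding genes per Mb had a Pearson r of 0.69 and a Spearman rho of 0.71, and r was 0.79 without chromosomes 10 and 11. These are descriptions over neighbouring stretches of 1 list. A linear fit over 925 windows of 2 Mb, with chromosome and protein-coding genes as terms, put the ends 0.23 log2 units below their fitted number of peaks on average (SD 0.52). The end was below on 11 of 15 chromosomes (permutation test over sign changes of the 15 observed minus fitted values, unadjusted p = 0.0935). The fit included these same last windows. The lowest value was -1.66 for chromosome 10, where 84 protein-coding genes share 92 peaks. Of those genes 58 are olfactory receptors (Olfr), short genes that detect odorants, and none of the 58 had a peak in its body. Olfactory receptors elsewhere rarely had one either (41 of 643, 6.38%).

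**Figure D4:**
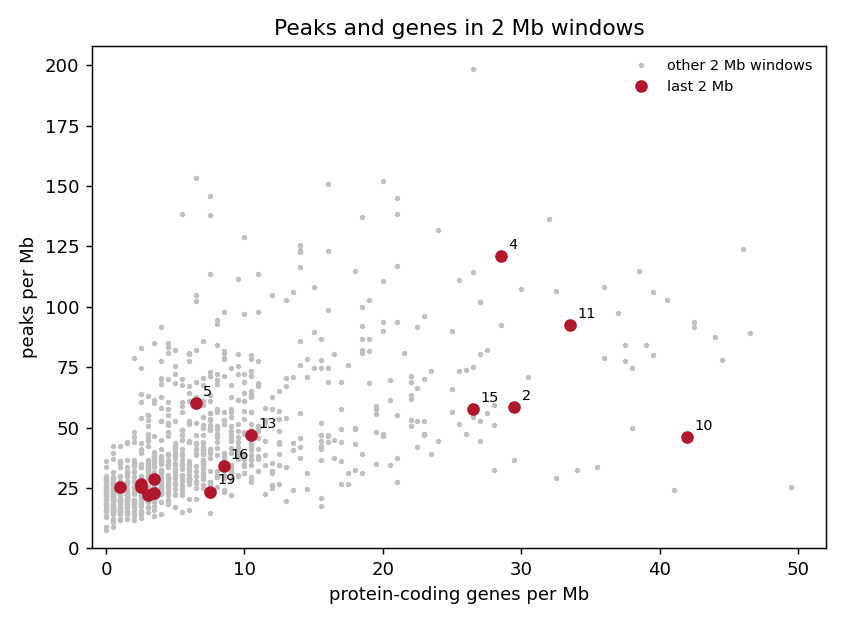
Peaks per Mb (vertical axis) against protein-coding genes per Mb (horizontal axis) in 925 windows of 2 Mb, with the 15 last windows as large red points, 9 of them labelled by chromosome. Chromosomes 4 and 11 lie at the upper right, and chromosome 10 combines 42.0 genes per Mb with 46.0 peaks per Mb.

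The second feature was the background under the peaks. The pileup of reads in a peak and the background that its fold was taken against can be recovered from the deposited fold and p-value. Most peaks of the list shared 1 lowest background, 6.37 reads. Which libraries served as the background is not given in the sources used here, so a higher background is described only as a recovered value. At the ends 37.5% ± 19.12 of peaks were above the lowest background, against 24.7% ± 3.99 elsewhere (SD, n = 15 chromosomes). The share was higher on 9 of 15 chromosomes, by 12.8 percentage points on average, and did not pass the threshold (paired permutation test, p = 0.0179, adjusted p = 0.0628). It passed with chromosome 2, 4, 15 or 16 left out.

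The ends formed a wide range in this share, from 13.7% on chromosome 2 to 70.6% on chromosome 14, with a median of 40.2%. The rest of the chromosomes ran from 17.3% to 29.5%. On chromosomes 14 and 17 (70.6% and 52.9%) no other 2 Mb window had a higher share. The share was also low on other gene-rich ends, with 14.8% on chromosome 15, 16.9% on chromosome 4 and 17.3% on chromosome 11, but it was 40.2% on chromosome 10, which has the most genes. Across the 15 ends the share and the density had a Pearson r of -0.74 and a Spearman rho of -0.87, with r = -0.85 without chromosomes 4 and 11. Density is the denominator of the share, so the 2 values are not independent.

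The planned comparisons with nearer sequence and with a shorter end both passed. Against the 8 Mb before them, where 17.0% ± 4.26 of peaks were above the lowest background, the ends were higher on 14 of 15 chromosomes, again except chromosome 2 (difference 20.5 points, permutation test, adjusted p = 0.00192). In the last 1 Mb the share was 43.6% against 24.6% and higher on 13 of 15 (permutation test, adjusted p = 0.0047). In the last 5 Mb it was 25.8% against 25.04% (permutation test, adjusted p = 0.846). By bins of 0.5 Mb from the end the share over all chromosomes was 42.2%, 31.7%, 23.3% and 17.6%. It was 8% in the bin just beyond 2 Mb, the lowest within 20 Mb. The bins after that had 13.8%, 15.1% and 13.1%, and the share reached 26.0% at 10.5 to 11 Mb. Chromosomes differed: chromosome 11 had 0 such peaks in the last 0.5 Mb and 18 at 1.5 to 2 Mb. Chromosomes 3, 10, 13, 14 and 17 also had their most in another 0.5 Mb bin of the last 2 Mb. In number, peaks above the lowest background made up 13.5 ± 4.09 per Mb at the ends and 10.7 ± 0.859 elsewhere. Those at the lowest background made up 32.6 and 33.5 per Mb.

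**Figure D5:**
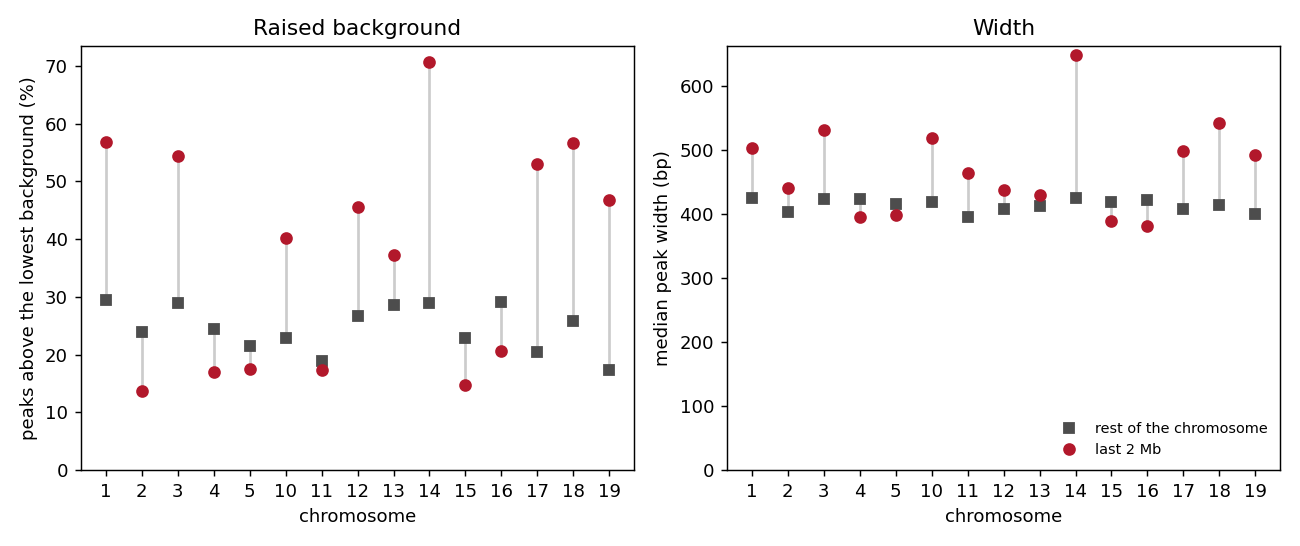
Left, percent of peaks above the lowest background, and right, median peak width in bp (vertical axes), for each of the 15 chromosomes (horizontal axes), in the last 2 Mb (red circles) and the rest of the chromosome (grey squares). The ends reach 70.6% and 649 bp on chromosome 14, and the squares stay within 17.3% to 29.5% and 395 to 425 bp.

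Peaks at the ends were wider, by a margin that just passed the threshold. The median width of a chromosome's peaks averaged 471.5 ± 72.9 bp at the ends and 414.1 ± 9.48 bp elsewhere (SD, n = 15 chromosomes), a difference of 57.4 bp. It was higher on 11 of 15 chromosomes, the exceptions being 4, 5, 15 and 16 (paired permutation test, p = 0.00696, adjusted p = 0.0487). The call held in 5 of 15 fits that left out 1 chromosome (without 2, 4, 5, 15 or 16; adjusted p from 0.0265 to 0.0974) and in 3 of 9 other alternatives. Among peaks at the lowest background alone the averages were 367.7 and 354.3 bp (permutation test, adjusted p = 0.318), higher on 11 of 15. Among peaks above it they were 641.9 and 646.6 bp, higher on 6 chromosomes and lower on 8, with no test made. Whether the mix of these kinds of peak accounts for the width difference was not tested. With all peaks pooled, the median width was 442 bp for members and 414 bp elsewhere. Widths of members ran from 54 to 3902 bp, and 80 of the 1382 (5.79%) exceeded 1 kb, against 3.85% elsewhere.

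No difference in fold enrichment passed the test. The median fold of a chromosome's peaks averaged 13.17 ± 1.71 at the ends and 13.19 ± 0.372 elsewhere (permutation test, adjusted p = 0.954). With all peaks pooled the medians were 13.70 and 13.16, with no test made. Folds of members ran from 1.85 to 55.7. Here and below a fold is the authors' value for a single peak of the merged list.

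Of the 10 highest folds, 3 lay in Tmem267 on chromosome 13, which encodes a transmembrane protein. They were 55.7 (119606590 to 119607208), 53.4 (119601160 to 119601738) and 47.1 (119596245 to 119596875). All 14 peaks in this gene were above the lowest background, with pileups of up to 4162 reads, the highest among members. Its first peak stood on a background of 293.6 reads, also the highest among members, with a fold of only 3.95. The others among the 10 were on chromosomes 11, 4 and 2, and all but 1 stood on the lowest background. They lay in Fasn (fatty acid synthase, fold 53.0), Pank4 (a pantothenate kinase family member, 51.0), Mafg (a small Maf transcription factor, 47.5), Slc16a3 (the lactate exporter MCT4, 47.3), Lama5 (a laminin chain of basement membranes, 47.1) and Ogfr (the opioid growth factor receptor, 46.5). The remaining one was the peak over the start of Tex19.1 (121145685 to 121146544, 860 bp, fold 50.2), with 373 reads over a background of 6.46.

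The 5 widest peaks were of both kinds. The widest, 3902 bp on chromosome 3 (158735805 to 158739706), lay outside any gene, 175.8 kb from Lrrc7, and had a fold of 7.73 on a background of 48.1 reads. Agrn, which encodes the proteoglycan agrin, held one of 3485 bp with a fold of 31.2. The next were in Fasn (2974 bp, fold 31.3), Bahcc1 (2207 bp, fold 9.49) and Gtsf1 (2163 bp, fold 4.86).

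None of the 15 last peaks was inside a protein-coding gene, 3 were inside pseudogenes (Ftl1-ps2 on chromosome 10, Gm19853 on 17 and Gm20762 on 19), and 8 were above the lowest background. Of all 1382 members 53.5% lay in protein-coding bodies and 29.2% were above the lowest background, against 53.3% and 24.6% elsewhere. These counts of last peaks were not tested. The nearest protein-coding gene was 1.605 kb away on chromosome 4 (Vmn2r129, a vomeronasal receptor) and up to 180.8 kb away on chromosome 1 (Cr2, a complement receptor). Folds ran from 3.23 on chromosome 1, over a background of 125.3 reads, to 42.0 on chromosome 4. Widths ran from 54 bp on chromosome 5 to 1353 bp on chromosome 1. On chromosome 17 the whole last 2 Mb held 2 protein-coding genes, and no peak lay in either.

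The gene context of the members was close to that of the list when peaks were pooled. Of the 1382, 53.5% had their midpoint in a protein-coding gene body, 4.56% only in a long non-coding RNA gene, 3.33% only in another gene and 38.6% between genes. Elsewhere the shares were 53.3%, 5.41%, 2.73% and 38.5%. By chromosome the share in protein-coding bodies was 43.5% ± 26.0 against 53.2% ± 7.05, higher on 7 and lower on 8 (paired permutation test, adjusted p = 0.312). In bodies of any gene it was 53.2% ± 23.5 against 61.4% ± 6.07 (permutation test, adjusted p = 0.312), and at 1 kb or less from the end of a protein-coding gene 4.205% against 4.30% (permutation test, adjusted p = 0.954). The ends of chromosomes 4, 2, 11 and 14 had 78.5%, 72.6%, 71.9% and 70.6% of their peaks in protein-coding bodies, and those of chromosomes 1, 12 and 17 had 15.9%, 17.5% and 0%.

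Gene bodies held fewer of the peaks in 2 other comparisons that had been planned. In the last 1 Mb the share in protein-coding bodies was 33.2% against 53.3% (difference -20.1 points, lower on 11 of 15, permutation test, adjusted p = 0.0125). Against the 8 Mb before, where it was 58.5%, the difference was -15.0 points (lower on 11 of 15, permutation test, adjusted p = 0.0437), and this call was lost in 10 of 15 fits that left out 1 chromosome. For the main comparison, protein-coding bodies covered 41.9% of the last 2 Mb and 40.7% of the rest on average. Density within them was 49.1 peaks per Mb in the last 2 Mb and 58.0 in the rest, and outside them 39.9 and 34.4. Coverage was 34.3% and 45.1% in the 0.5 Mb bins of the last 1 Mb. In the 2 Mb steps of the 8 Mb before, it was 49.1%, 38.8%, 49.9% and 39.4%.

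Counted by gene, 224 of the 418 protein-coding genes in the last 2 Mb had a peak in the body (53.6%), below the 65.1% over all 15164 such genes. Without the olfactory receptors it was 224 of 360 (62.2%), against 68.1% elsewhere. A peak within 1 kb of a gene end was found at 82 of the 418 (19.6%), against 21.9% over all. Gene length differs as well: without olfactory receptors the median was 14.9 kb at the ends and 20.5 kb elsewhere. These shares were not tested.

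The genes with most peaks were long or lay on the dense ends. Prdm16 on chromosome 4, a zinc-finger regulator of brown fat and craniofacial development, had 53 in 321.2 kb. Its count covers the whole gene, which starts before the last 2 Mb, so not all 53 need be members. Fry on chromosome 5 had 32, and Dscam on chromosome 16, a neuronal adhesion molecule, had 17. Lama5 had 18 in 49.5 kb, or 3.63 per 10 kb, and Cep131, a centrosome gene on chromosome 11, had 12 in 22.4 kb, or 5.35 per 10 kb. Itgbl1 on chromosome 14 had 15, of which 12 were above the lowest background, and Bahcc1 had 14, of which 7 were. Prkcz, a protein kinase C gene, had 14 and Plch2, a phospholipase C gene, had 13, none of them above it.

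Peaks at gene ends were named for the 3 densest and the 3 sparsest windows. On chromosome 4 a peak of fold 45.3 lay beside Atad3a, and others lay at Ankrd65 (44.1), Gabrd (36.9), Pank4 (33.9) and Rnf223 (24.7). Chromosome 11 had, beside Tex19.1, peaks at Myadml2 (43.1), at the neighbours Pcyt2 and Sirt7 (1 shared peak, 40.02), at Slc16a3 (39.3) and at Uts2r (38.5). On chromosome 5 the strongest was at Brca2 (40.7), and Rfc3, the protein-coding gene nearest to the end, had one of fold 7.33. The sparse ends of chromosomes 1 and 3 had none, and chromosome 19 had one at Csf2ra (28.5) and one at Gm7102 (5.03).

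Of the genes on 6 lists (cartilage matrix, energy metabolism, Hoxc cluster and limb patterning, telomere maintenance, germline, and neuronal channels and receptors), 44 lay in the last 2 Mb. A body peak was found in 33 of the 44 (75%), against 65.1% of all protein-coding genes. An end peak was found in 14 of the 44, against 21.9% of all protein-coding genes. Neither share was tested. The lists were chosen with earlier results of these data known, so their counts support nothing beyond themselves. Of 6 cartilage matrix genes, 4 had a body peak, near the share of all genes, as had 13 of the 19 listed genes elsewhere. Lama5 had 18 (median fold 24.4), Itgbl1 15 (10.2), Agrn 8 (9.63) and the fibril-associated collagen gene Col20a1 1 (14.2). Col9a3, a chain of cartilage collagen IX, and Itga5, a fibronectin receptor subunit, had none in the body or within 1 kb.

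Of 7 energy metabolism genes, 6 had a body peak and 3 had one at a gene end, against 12 and 4 of the 15 elsewhere and 65.1% and 21.9% of all genes. Fasn held 8 with a median fold of 20.9, Nnt, the mitochondrial transhydrogenase, held 6 (16.5), and the mitochondrial ATPase Atad3a held 5 (16.1). The dicarboxylate carrier Slc25a10 held 4 (22.3). Slc16a3 had 1 in the body (47.3) and 1 just outside its end (39.3), and the mitochondrial peroxidase Prdx3 had 1 (10.7). Sfxn4 had none. Every body peak of these 6 genes stood on the lowest background.

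Of 13 genes of the Hoxc cluster and limb patterning list, 8 had a body peak and 4 an end peak, against 6 and 1 of the 9 elsewhere. The body share was near the 65.1% of all genes, and 21.9% of all genes had an end peak. Hoxc genes set position along the body axis. On chromosome 15, Hoxc13, Hoxc10, Hoxc9 and Hoxc8 had no peak, while Hoxc4 had 5 (folds 8.28 to 30.9), Hoxc6 had 2 (7.46 and 31.7) and another just outside its end (15.2), Hoxc5 had 1 (27.9), Hoxc11 had 2 (7.05 and 9.22) and Hoxc12 had 1 (13.0). Ski, a repressor of TGF-beta signalling, had 6, the Wnt mediator Dvl1 had 3, and the receptor kinase Grk5 had 10, of which 9 were above the lowest background. Emx2 had none.

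Rtel1, a helicase that unwinds telomeric DNA, was the only telomere maintenance gene here, and its body had 1 weak peak of 181 bp (fold 8.004). Of 6 germline genes, 4 had a body peak and 4 an end peak. Elsewhere 13 of the 15 on the list had each, and over all genes the shares were 65.1% and 21.9%, so peaks at the ends of these genes were not limited to the last 2 Mb. Tex19.2 (37.0), Zar1l (13.0), an oocyte gene, and Gtsf1 (40.8), which acts with piRNAs, each had a peak at an end, as did Tex19.1. Tcfl5 had 1 in the body (15.3) and Nanos1 had none. Of 11 genes of neuronal channels, receptors and related proteins, 10 had a body peak, as had 8 of the 9 elsewhere, against 65.1% of all genes. Nalcn (6 of 9), Fgf14 (7 of 10) and Dok6 (6 of 9) had most of theirs above the lowest background, and Lrrc7 had 3 of 7. Prlhr had none.

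The median gap between neighbouring member peaks was 6.95 kb, against 8.49 kb over the rest and 4.93 kb in the 8 Mb before, with no test made. Of the 1367 gaps, 165 (12.1%) were within 500 bp, against 8.92% elsewhere. A background of at least 10 times the lowest was found at 77 members (5.57%), against 4.796% elsewhere. Among these were peaks 5.91 kb from Olfr784 on chromosome 10 (250.3 reads, fold 2.22), between genes on chromosome 12, 17.7 kb from the pseudogene Gm9279 (208.5 reads, fold 2.56), and 4.02 kb from Rnf223 on chromosome 4 (197.7 reads, fold 1.85). What these stretches hold was not tested.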

How the data were processed

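MBD-seq libraries of 6 chondrocyte cultures (control, n = 3, and cKO, n = 3) underlie 1 peak list. The submitters' processing notes name fastp, Bowtie2 and MACS2 with the builds mm10 and GRCm38, and the peak names show 3 merged datasets, not saying which. Read depth per culture is not given in the sources used here. The deposited fold enrichment of a peak is the ratio of its reads to a background whose libraries are not given in the sources used here, so folds and backgrounds cannot be assigned to control or cKO. Each peak also has a deposited −log10 p and −log10 q, and a score made by the authors from the q. The lowest −log10 q in the authors' deposited table was 20.004, so weaker regions are missing from every count.

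Members, measures and gene lists were chosen with earlier results of these data known. Pileup and background were solved from fold and Poisson p for a whole-number pileup, accepted within 1% of the step between pileups (99.97% of peaks, and all members), with a script tested on simulated data. Peaks were placed by midpoint in RefSeq genes of GRCm38.p6. Per chromosome, 7 measures were compared between the last 2 Mb and the rest by a two-sided paired permutation test (32768 exchanges, Benjamini-Hochberg over the 7, threshold 0.05). Neighbouring windows of a chromosome are not independent of each other. Named were the last peaks, the 10 highest folds, the 5 widest, the 10 genes with most peaks, the list genes at the ends and up to 6 gene-end peaks in each of the 3 densest and 3 sparsest windows; 2 genes under this rule are not reported here. Alternatives were other windows, comparison stretches, thresholds, merging, placement and each chromosome left out. Chromosome 6, which is cut in the list, and unplaced contigs were left out. Python 3.11.15, numpy 2.4.6, pandas 2.3.3, scipy 1.17.1 and matplotlib 3.10.9 were used.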

Additional observations from a re-analysis of the deposited data

How the results depend on the processing

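No paired analysis was possible because no culture has a value of its own in the list, and the replicate numbers shared by the groups pair nothing. With each chromosome left out in turn, differences between the last 2 Mb and the rest ran from -3.28 to 4.197 peaks per Mb for density, from 45.5 to 64.4 bp for width and from 10.75 to 14.46 points for peaks above the lowest background. They ran from -10.3 to -4.92 points for gene bodies, from -12.1 to -6.18 for protein-coding bodies, from -0.733 to 0.284 for gene ends and from -0.31 to 0.12 for median fold. Width was called in 3 of 9 other alternatives. It was not called in the last 5 Mb (9.87 bp), at a −log10 q of at least 50 (35.3 bp) or 100 (15.5 bp), at a fold of at least the median (29.2 bp), at the lowest background alone (13.4 bp) or with peaks within 500 bp merged (49.4 bp).

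Against the 8 Mb before, the differences were -29.5 peaks per Mb, -14.4 points for gene bodies, -15.0 for protein-coding bodies, 20.5 for peaks above the lowest background and 0.0473 for gene ends. The last 1 Mb gave -17.0, -20.1 and 18.9 points for the same shares in this order. The sign of the density difference also turned at the lowest background alone (-0.928 peaks per Mb) and given gene content (-0.23 log2 units). Gene ends turned, with no call, at a −log10 q of 50 (0.0295) and 100 (0.355), at the higher folds (0.241), after merging (0.107), by any overlap (0.0910) and with windows of 500 bp (0.411) and 2 kb (0.235). Median fold turned, with no call, in the last 5 Mb (0.51), without the first 10 Mb (0.0562), at the higher folds (0.14), at the lowest background (0.91) and after merging (0.48). The cause was not tested. The list gives no depth per culture, and peaks under its threshold cannot be counted.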
